A study of Rattus norvegicus with 2 samples.

Results

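Interleukins and interleukin receptors were examined in the nucleus tractus solitarius (NTS) of Wistar Kyoto (WKY) rats. The members are all array probes for rat transcripts whose gene name begins with Il and a digit. These were 84 probes on 120 spots for 73 genes, out of 17342 named genes, 30367 rat probes and 42877 rat spots. By role, 34 of the genes encode ligands, 35 encode receptor chains and 4 encode soluble inhibitors or decoys (Il1rn, Il18bp, Il22ra2 and Il36rn).

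The male group was 1 pool of 5 male WKY rats and the female group 1 pool of 5 female WKY rats, all 9 weeks old and without treatment in the labels. Both groups share the strain, a normotensive laboratory rat. Each rat gave 100 ng of total RNA from tissue that reached from 1.0 mm in front of the calamus scriptorius to 0.5 mm behind it. Each pool was labelled with Cy3 and hybridised to 1 single-colour Agilent array, so a difference between the arrays has no replicate check, and no test was made. Values are processed signals in intensity units, or log2 levels relative to the array's 75th percentile, and pairs of values are given in the order male array, female array. Differences are log2, female minus male. The tissue is a bulk dissection, so fewer cells of a type and less RNA per cell cannot be told apart.

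Interleukins are secreted proteins through which immune cells, glia and neurons signal to each other. Most bind receptors of 2 or more chains, one that recognises the ligand and one that is shared by a family, such as the common gamma chain Il2rg or gp130, encoded by Il6st. These receptors signal through JAK kinases and STAT factors, whereas receptors of the IL-1 family use Myd88 and IRAK kinases and those of the IL-17 family use Traf3ip2. The NTS receives the first central input of baroreceptor and vagal afferents, and it is known as a site where cytokine signals from the body reach the brainstem.

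The probes are 60 bases long, and what was measured is the binding of labelled RNA to these stretches. Genome positions come from the rn4 build that the array headers name. Of the 84 probes, 5 cross an intron and so lie in exons on both sides of it. The arrays give no exon, coding or untranslated label for the others. The following probes are shown because detection turned on them: Il6 was not well above background although its probe was spotted 10 times, and Il1r1 and Il1rl1 each had 1 probe above and 1 probe below. Capitals mark CG dinucleotides, which are 7 in the whole GC-rich probe of Il1r1 and 2 in its intron-crossing probe. Of that GC-rich probe the first 30 bases are printed, and the rest are shown whole.
Il6 at chr4:457279-458563, minus strand, crossing an intron: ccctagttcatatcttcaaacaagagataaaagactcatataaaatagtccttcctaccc
Il1r1 at chr9:39472634-39473165, plus strand, crossing an intron: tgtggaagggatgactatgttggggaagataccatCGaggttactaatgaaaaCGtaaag
Il1r1 at chr9:39433292-39433351, plus strand, predicted variant X10: cCGgcctggagtctcCGcctgctgcaCGcc
Il1rl1 at chr9:39619275-39620742, plus strand, variant 2, crossing an intron: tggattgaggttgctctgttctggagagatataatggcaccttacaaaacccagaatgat

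The first 30 bases of 5 further probes are shown because the largest differences and bounds between the pools rest on these single spots. Il17re, Il17rb and Il13ra2 were the members at least 2-fold higher in the male pool, and Il17c and Il27ra, detected on the female array only, had the 2 highest bounds. Capitals again mark CG.
Il17re at chr4:149361638-149361697, plus strand: tgagaggggtttgtgtCGtccagaaagatg
Il17rb at chr16:5336424-5336483, minus strand: tcttttgtagCGatttcagcagccagactc
Il13ra2 at chrX:30506824-30506883, minus strand: atattccttttattacttctttgtcttatt
Il27ra at chr19:25807052-25807111, plus strand: ataataagaacaacttccaagcaggctatg
Il17c at chr19:52711644-52711703, plus strand: ggatctttcaccttccacactgagttcatc

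Of the rat spots 85.5% (male array) and 87.9% (female array) were well above background. The lowest signal so classed was 13.1 for males and 9.59 for females, so fainter spots passed on the female array; a spot can lie over this signal and still not pass. The 153 negative control spots had median signals of 3.12 and 2.30. The highest control signals were 24.4 and 63.1, and 3 and 1 of the control spots were well above background. A call near the limit is thus not clear of the controls. The 75th percentile of rat spots was a signal of 3441 and 3380. The SD of the difference between repeated spots of a probe was 0.31 for probes over 64-fold below the 75th percentile, 0.15 between 16-fold and 64-fold below, 0.089 between 4-fold and 16-fold below and 0.069 above that. It covers technical error within the arrays and leaves out differences between rats and between labelling reactions. Scaling by spike-ins instead of the 75th percentile moved every difference by 0.67 towards the female pool, so all differences are relative to the bulk of genes. The 6 markers of NTS neurons on the array, the catecholamine enzymes Th and Dbh, the transcription factors Lmx1b and Tlx3 and the neuropeptide genes Prlh and Cartpt, were all well above background on both arrays.

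Transcripts of 50 of the 73 interleukin genes (68.5%) were well above background on both arrays, against 83.8% of all named genes. Receptors were present more often than their ligands: 29 of 35 receptor genes (82.9%) were detected on both arrays, 17 of 34 ligand genes (50%) and all 4 inhibitor genes. A further 5 genes were detected on the female array only, and 18 on neither, of which 14 were ligands. By brightness averaged over both arrays, 14 of the 50 detected genes lay over 64-fold below the 75th percentile (28% against 10.8% of all detected genes), and 10 lay less than 4-fold below it or above it (20% against 48.6%). The interleukin genes were thus a dim set, for which spot error is larger. With 1 to 2 probes per gene and unequal probe brightness, non-detection gives only a limit on the transcript.

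**Figure D1:**
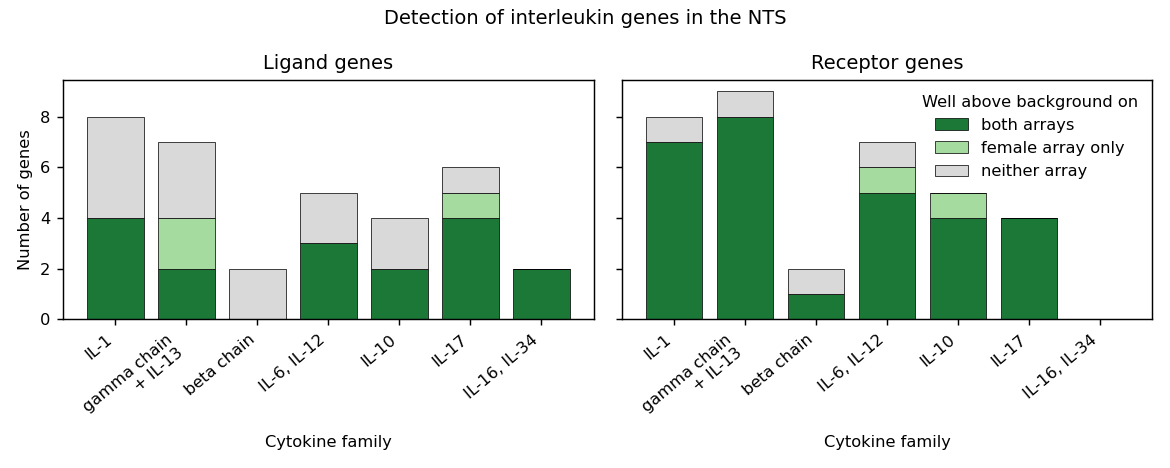
Number of ligand genes (left) and receptor genes (right) in each cytokine family, coloured by whether the gene was well above background on both arrays, on the female array only or on neither. Detected ligands make up 17 of 34 and detected receptors 29 of 35, and no beta chain ligand was detected.

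The IL-1 family ligands divided evenly, with 4 of 8 detected on both arrays. Il18, which inflammasome caspases activate, gave signals of 1356 and 1318 and differed by -0.015. Il33, a nuclear alarmin of glia and barrier cells, gave 722 and 740, which differ by 0.062 (spot SD 0.089). The 2 classical fever cytokines lay between 16-fold and 64-fold below the 75th percentile: Il1a gave 92.4 and 92.9 and Il1b 89.8 and 73.3. The 4 ligands not detected were Il36a, Il36b, Il36g and Il1f10, which are known mainly from skin and other epithelia. Their highest signals were those of Il36g, 13.3 and 10.1, and those of Il36a, at 3.18 and 2.36, lay at the level of negative controls.

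Among the ligands of the common gamma chain and the related IL-13, 2 of 7 were detected on both arrays. Il15, which sustains natural killer cells, gave 94.5 and 98.7, and Il13, a type 2 helper cytokine, gave 39.3 and 40.5. Il2, the T cell growth factor, was at 2.63 and 1.95, Il7, the lymphocyte survival factor, at 3.07 and 2.26, and Il4, the type 2 helper cytokine, at 5.00 and 7.09. All of these last were below the limit on both arrays. The beta chain ligands Il3 and Il5, growth factors of myeloid cells and eosinophils, were also not detected, at 5.15 and 7.07 for Il3 and 3.77 and 2.71 for Il5.

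In the IL-6 and IL-12 families 3 of 5 ligands were detected. Il11, a gp130 cytokine, gave 205 and 162 and differed by -0.31 (spot SD 0.15). Il12a, the p35 subunit of IL-12, gave 166 and 181, and Il23a, the p19 subunit of IL-23, gave 237 and 277. Their shared p40 partner, Il12b, was not detected, at 2.74 and 7.21, so the array showed 1 subunit of each cytokine above background and not the other. Il6 was not detected either, on any of the spots used.

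Of the IL-10 family, Il20 and Il24, cytokines that act on epithelia, were detected at 50.2 and 57.6 and at 105 and 104. Il10, the inhibitory cytokine itself, stayed at 4.84 and 7.39, and Il22 at 2.88 and 4.40. Of the IL-17 family 4 of 6 ligands were detected on both arrays. Il17d gave 871 and 951, Il25 gave 151 and 136, Il17b gave 140 and 158, and Il17a, the product of type 17 helper T cells, gave 16.8 and 19.1, just over the limit. Il17f was not detected, at 4.02 and 7.79. The ligands that belong to none of these families were both present: Il34, the second ligand of the microglial receptor Csf1r, gave 8344 and 8885, over the 75th percentile of both arrays, and Il16, a ligand of Cd4, gave 552 and 520.

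Receptor chains shared by several cytokines were detected in most families. The common gamma chain Il2rg gave 7709 and 7842, and gp130 (Il6st) gave 4559 and 4310. Il17ra, the chain common to IL-17 receptors, gave 4876 and 4475. Each of these 3 lay above the 75th percentile of both arrays and differed by no more than 0.10 between them, with a spot SD of 0.069. Il10rb, the common second chain of IL-10 and IL-22 receptors, gave 1792 and 1116.

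Of the gamma chain family, with the IL-13 receptor chains counted in, 8 of 9 receptor chains were detected. The 3 chains of the IL-2 receptor were all classed above background while Il2 itself was not: Il2ra gave 26.0 and 23.3 and Il2rb 55.9 and 43.0, beside Il2rg above. The female signals of Il2ra and Il2rb lay below the highest negative control signal of that array, 63.1. Il7r gave 28.3 and 31.4 on 1 probe and 26.2 and 27.5 on the other. Il4r, which pairs with Il2rg or Il13ra1, was measured at 95.6 and 92.3 by a probe at transcript position 705 and at 581 and 399 by one at position 2415. These probes gave differences of -0.024 and -0.52, so they disagreed on the contrast. Il13ra1 gave 77.0 and 68.8 on 1 probe and 484 and 460 on the other. Il9r was not detected, at 3.52 and 2.65.

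Of the IL-6 and IL-12 families 5 of 7 receptors were detected on both arrays. Il6r, the ligand-binding chain for IL-6, gave a mean of 193 and 161, Il11ra1, that for IL-11, 2868 and 2881, Il12rb1 14.1 and 11.3, and Il12rb2 191 and 202. Il31ra, a receptor for the itch cytokine IL-31, was not detected, at 10.9 and 2.42. Of the beta chain family, Il3ra gave 457 and 425 on 1 probe and 2608 and 2370 on the other, whereas Il5ra was not detected, at 2.91 and 2.16. Il10ra, the chain that binds IL-10, gave 20.3 and 23.6, so both chains of the IL-10 receptor were classed above background and the ligand was not. The Il10ra call rests on 1 spot below the highest negative control signals, 24.4 and 63.1, and is not clear of the controls. Il20ra gave 18.5 and 20.4, and Il20rb gave 22.9 and 31.2. All 4 IL-17 receptor chains on the array were detected.

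Of the 8 IL-1 family receptor genes, 7 were detected, but 3 of them on 1 probe of 2. Il1r1, the signalling receptor for IL-1, rested on the GC-rich probe for predicted variant X10, at 636 and 608. The intron-crossing probe of its reference transcript, 39.3 kb away, was at 9.06 and 8.08 and not detected. Il1rap, the coreceptor, was detected by a probe for variant 2, at 84.7 and 93.5, and not by one for variant 1, at 11.1 and 6.84. Il1rl1, the IL-33 receptor, was detected by its intron-crossing probe for variant 2, at 14.8 and 14.9, and not by the probe for variant 1, at 4.58 and 3.43. Thus for these 3 receptors the call depends on the probe, and a reading of the gene as present holds for the detected stretch only. Il1r2, a decoy for IL-1, gave 34.1 and 34.6, Il18r1, which binds IL-18, gave 56.8 and 69.0, and Il1rl2, the receptor for IL-36 ligands, was not detected, at 3.34 and 8.72. Il1rapl1, a relative of the coreceptor known for organising synapses, gave 57.8 and 61.0, and its close relative Il1rapl2 gave 143 and 196.

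Probe pairs disagreed in 3 further genes. Il1a was detected by the probe at transcript position 1796 and not by the one at position 720, which gave 9.82 and 9.36. Il6st was detected by its reference probe, whereas a probe designed on another transcript record gave 4.07 and 2.28. Il36rn was detected at position 731, at 230 and 221, and not at position 2965, at 3.16 and 2.36. In all, 11 member genes had several probes and 6 of them had probes that differed in detection.

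The inhibitors were detected without exception. Il1rn, the IL-1 receptor antagonist, gave 153 and 158 and differed by 0.073 (spot SD 0.15). Il18bp, which sequesters IL-18, gave 708 and 629 on 1 probe and 2997 and 2882 on the other. Il22ra2, a soluble decoy for IL-22, gave 334 and 420 and differed by 0.36 (spot SD 0.089), while its ligand was not detected. Il36rn, the IL-36 antagonist, differed by -0.031.

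**Figure D2:**
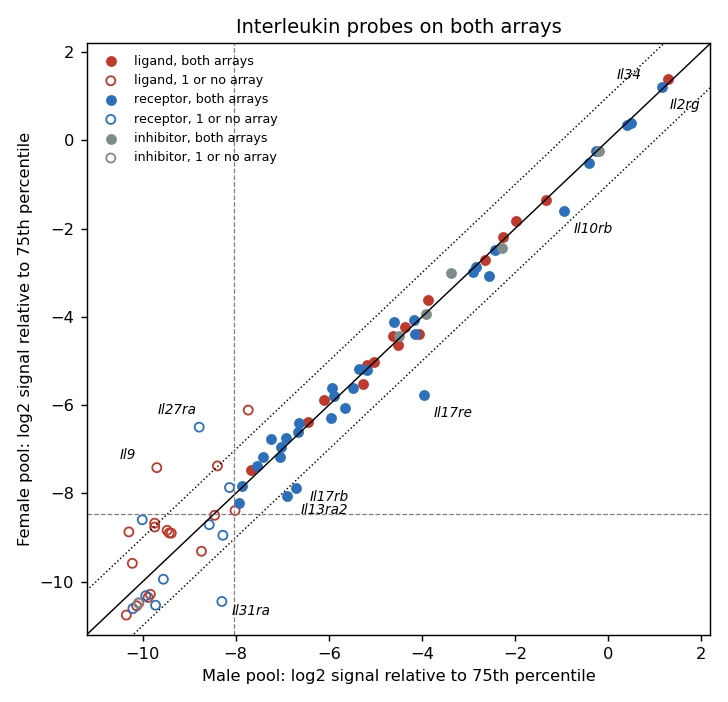
Each of the 84 probes by its log2 level relative to the 75th percentile on the male array (horizontal) and on the female array (vertical); filled points were well above background on both arrays. The solid line marks equal levels, the dotted lines 2-fold differences and the dashed lines the lowest level that counted as well above background, -8.03 and -8.46; distances between different probes carry no meaning, and Il17re lies farthest from the solid line among filled points.

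The pools were close in most interleukin genes. Of the 50 genes detected on both arrays, 28 had the higher value in females and 22 in males, beside 6584 and 7950 of all 14534 detected genes. The median difference was 0.033 against -0.016 over all genes. With normexp the split of members turned to 21 and 29. Ligand differences ran from -0.31 to 0.25 with a median of 0.068, and receptor differences from -1.82 to 0.48 with a median of -0.040. None of the 50 was at least 2-fold higher in females, against 0.11% of all detected genes. Towards the male pool 3 passed 2-fold (6%, against 0.385% of all detected genes), all of them receptors. Of these, Il13ra2 and Il17rb lay over 64-fold below the 75th percentile, where 28% of the members and 10.8% of all detected genes lay. Differences beyond 2 spot SDs were found in 5 genes towards the female pool (7.25% of all detected genes were) and in 6 towards the male pool (12.4% were), which is near those shares in both directions.

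The largest difference was in Il17re, the chain that pairs with Il17ra to bind IL-17C. Its spot gave 223 in males and 62.0 in females, which is -1.82 or 3.54-fold (spot SD 0.15). With spike-in scaling it was -1.15, and with normexp background correction -1.13, so it stayed above 2-fold in both. Il13ra2, a decoy receptor for IL-13, gave 28.8 and 12.6 (-1.17), and Il17rb, a receptor for IL-17B and IL-25, gave 32.8 and 14.5 (-1.15), each with a spot SD of 0.31. Both female signals were close to the lowest signal that counted as present. These 2 probes lay in 4 of 20 bands of array rows that had the highest share of dim spots at least 2-fold brighter on the male array, 2.14% to 4.07% against at most 1.71% in the others. Without those bands Il17re was the only member left at 2-fold; since the bands were picked by male excess, leaving them out favours the loss of such calls. Under normexp the differences were -0.32 for Il13ra2 and -0.20 for Il17rb.

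Related chains of the IL-17, IL-13 and IL-4 receptors did not share these sizes. Il17ra differed by -0.098, and Il17rd, another chain of the family, gave 34.4 and 40.2 and differed by 0.25 (spot SD 0.31). Il13ra1 differed by -0.091 and Il4r by -0.27. Whether these chains differ from Il17re and Il13ra2 was not tested.

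Below 2-fold, Il10rb had the largest male excess, -0.66 against a spot SD of 0.069. With spike-in scaling its difference was 0.014 and with normexp -0.72, so it stands relative to other genes and not in the spike-in scale. It was followed by Il21r, the IL-21 receptor, at 68.0 and 50.9, with a difference of -0.39, by Il2rb at -0.35, by the ligand Il11 at -0.31 and by Il12rb1 at -0.29, which is within 1 spot SD. The spots of Il2rb and Il12rb1 lay in the bands named above. Towards the female pool the largest was Il1rapl2, with 0.48 against a spot SD of 0.15, also in those bands, followed by Il20rb at 0.47 against 0.31. Il22ra2 came next, then Il18r1 at 0.31, Il23a at 0.25, Il17rd, Il10ra at 0.24 and Il20 at 0.22. Of the IL-10 family, 6 of 7 detected genes were higher in the female pool, and Il10rb was the exception. In the gamma chain family, with the IL-13 receptor chains counted in, 6 of 8 detected receptors were higher in the male pool. Among them Il13ra1 (-0.091, spot SD 0.15) and Il2ra (-0.13, spot SD 0.31) differed by less than 1 spot SD. Il13ra2 and Il2rb lay in the row bands, and the probes of Il4r gave -0.024 and -0.52. Of those 6 IL-10 family genes, Il10ra, Il20ra and Il24 differed by less than 1 spot SD, and Il10ra turned to -0.050 with normexp. With spike-in scaling 47 of the 50 detected members were higher in females and 3 in males, so these family directions depend on the scaling.

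**Figure D3:**
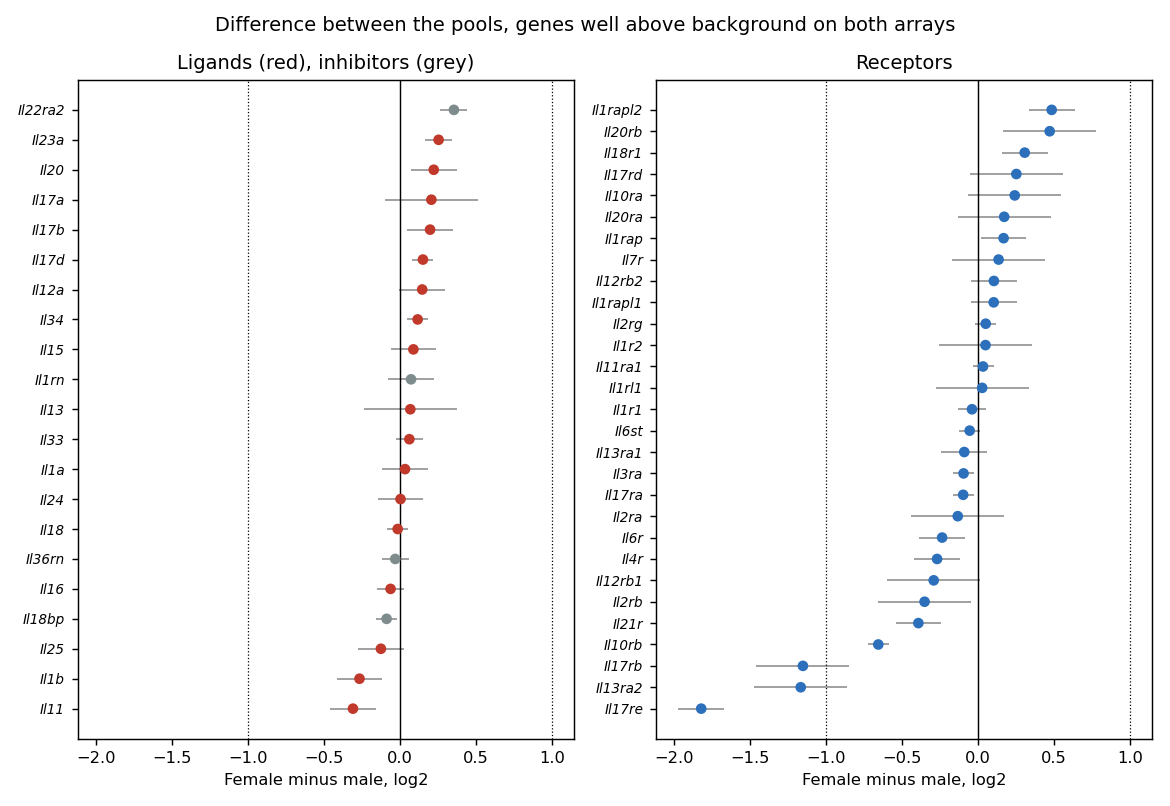
Female minus male difference on the log2 scale of each gene well above background on both arrays, ligands in red and inhibitors in grey (left), receptors in blue (right). Bars are 1 SD of repeated spots at that brightness and cover technical error only; the dotted lines mark 2-fold, which Il17re, Il13ra2 and Il17rb alone pass.

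Probes spotted 10 times show the technical error directly. Il1b, the main inflammatory interleukin of the brain's innate immune response, ranged from 79.9 to 98.4 in males (median 89.7) and from 68.7 to 81.9 in females (median 72.6). The ranges overlapped slightly, and at all 10 positions the male spot was higher, with a mean difference of -0.27 ± 0.11 (SD over 10 spots of 1 array pair). Il6r ranged from 174 to 216 in males (median 193) and from 150 to 175 in females (median 161). The male spot was again higher at all 10 positions, with a mean of -0.24 ± 0.098 (SD, 10 spots).

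Il1a overlapped fully: 9 unflagged positions ran from 84.0 to 102 in males (median 93.6) and from 84.6 to 109 in females (median 89.7). As scanned, the male spot was higher at 6 positions and the female at 3, and after scaling to the 75th percentile at 4 and 5, with a mean of 0.033 ± 0.15 (SD, 9 spots). Il6, the acute-phase cytokine, ran from 2.95 to 6.54 in males (median 3.61) and from 5.63 to 11.8 in females (median 7.90) at 7 unflagged positions. No unflagged spot was well above background on either array. Of its 3 flagged positions, 1 male spot read 34.0 and was the only one well above background. The others were flagged on the female array, where they read 2.50 and 2.19 beside 3.41 and 2.99 on the male array. The ranges and medians of Il6 leave these positions out. The spots of a probe share 1 labelling reaction per array, so their agreement speaks for the measurement of these pools and not for the sexes.

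**Figure D4:**
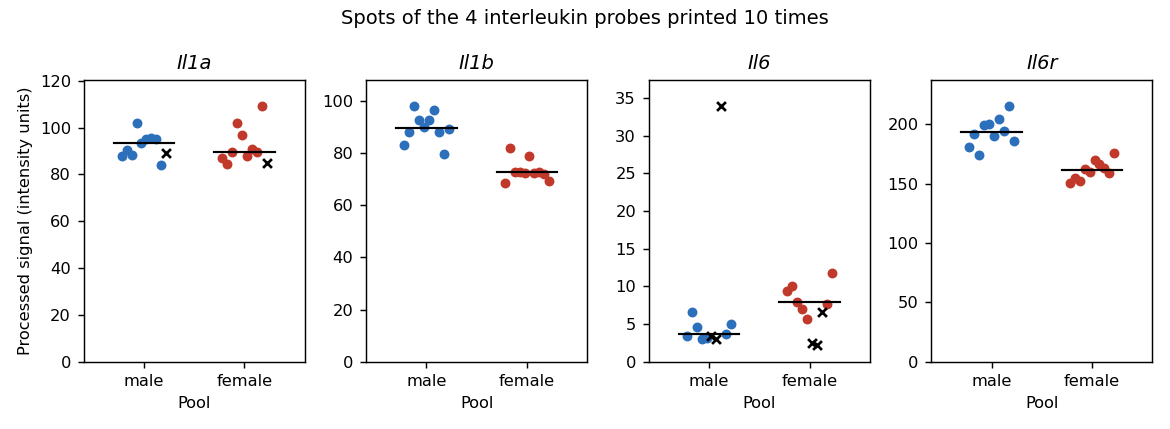
Processed signal (intensity units, linear axes from 0) of every spot of the 4 interleukin probes spotted 10 times, male array in blue and female array in red, with crosses for flagged positions and lines at the median of the spots used. Il1b and Il6r are lower on the female array with slight overlap of the ranges, Il1a overlaps, and none of the Il6 spots used was well above background.

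The female array alone detected 5 interleukin genes (6.85% of 73, against 2.98% of all genes), and the male array alone none (0.427% of all genes). Il17c, an epithelial ligand of Il17re, read 16.2 in males, not well above background, and 48.9 in females, with a bound of 3.07-fold. Il27ra, the IL-27 receptor that pairs with gp130, read 7.80 and 37.4, with a bound of 2.90-fold. Il21, a follicular helper T cell cytokine, read 10.2 and 20.3, and Il9, a mast cell and T cell cytokine, 4.15 and 19.8, with bounds of 1.58-fold and 1.53-fold. Il22ra1, the IL-22 receptor, read 12.2 and 14.5, with a bound of 1.12-fold. Bounds were taken against the higher of the male array's lowest detected level and the probe's own male level. Each rests on 1 spot, and all 5 female signals lay below the highest negative control signal of that array, 63.1. The bounds leave out spot error, for which the SD of a difference at this brightness is 0.31. The lower limit of detection on the female array moves with this count, and its part in it was not tested.

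Several members lie beside each other in the genome, and detection was set against these neighbourhoods. Within 1 Mb on chromosome 3, 6 genes of the IL-1 family (Il36g, Il36a, Il36b, Il36rn, Il1f10 and Il1rn) included 2 detected on both arrays, both of them antagonists. The IL-1 receptor cluster on chromosome 9 (Il1r2, Il1r1, Il1rl2, Il1rl1 and Il18r1) had 4 of 5 detected. The type 2 cytokine cluster on chromosome 10 (Il4, Il13, Il5 and Il3) had 1 of 4, Il13. On chromosome 13, Il24 and Il20 were detected and Il10 was not, and on chromosome 2 neither Il2 nor Il21 was detected on both arrays.

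Some probes also carry a short sequence known from cytokine messages. The pentamer ATTTA, the core of AU-rich elements through which many cytokine mRNAs are destabilised, was searched on the printed strand of each probe. It was found in 6 of 35 ligand probes (17.1%), 2 of 43 receptor probes (4.65%) and 0 of 6 inhibitor probes, against 6.58% of all rat probes. Its reverse complement TAAAT was in 2 ligand probes and in no receptor or inhibitor probe, against 7.40% of all rat probes. Of the ligand probes with ATTTA, 3 were of genes detected on both arrays. Windows of 30 bases are shown for 3 ligands, with the motif in capitals, because their probes were detected on the female array only (Il9), on both (Il23a) and on neither (Il10). The Il23a probe holds 2 motifs, of which its window shows 1. A match is only a match of letters in the probe and was not set against RNA stability. The arrays give no untranslated label, so a match is not shown to lie in an AU-rich element.
Il9, probe bases 28 to 57: actATTTAttctATTTAttgaATTTAcaaa
Il23a, probe bases 13 to 42: tgcgtATTTAttaagtgggaagggaaattt
Il10, probe bases 20 to 49: ctctctccaaaatATTTAttacctctgata
Median GC content was 45% in member probes detected on both arrays and 41.7% in the others, the same pair of values as over all rat probes.

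Downstream of these receptors the pools were also close, and no gene of the following lists detected on both arrays was 2-fold apart. All 10 JAK and STAT genes on the array were detected, 2 of them higher in females and 8 in males, with a median of -0.071. The largest were Stat5b at -0.36, Stat6, which IL-4 and IL-13 activate, at -0.34 and Jak3, the kinase of the common gamma chain, at -0.23. The spots of Stat5b and Jak3 lay in the row bands named above. Of 14 negative regulators 13 were detected, with a median of -0.029 and with Socs2 at -0.30, Socs1 at 0.27 and Socs4 at -0.24, of which Socs1 and Socs4 lay in those bands. All 15 adaptors and kinases of the IL-1 and IL-17 pathways were detected, 12 of them higher in the male pool, with a median of -0.10. Irak3, an inhibitor of IL-1 signalling, was at -0.41, Irak1 at -0.28 and Tab1 at -0.23.

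Of 9 other gp130 cytokines and receptors 8 were detected on both arrays and Osmr on the female array only. Their median was -0.12, with the LIF receptor Lifr at -0.57, Osm at -0.16 and Ctf1 at -0.15. Of 11 partners and processing genes, which include the Il34 receptor Csf1r at -0.28 and the Il16 receptor Cd4 at -0.26, all were detected, with a median of -0.073. Of 12 genes that cytokines induce, 9 were detected on both arrays and Cxcl1 and Fgb on neither. Ptgs2, which lay in the row bands named above, was detected on the female array only. Lcn2, an iron-carrier protein of acute inflammation, was at -0.63, Nos2 at 0.39 and the chemokine Ccl2 at -0.24. The medians of these 6 lists ran from -0.12 to -0.029, where that of all genes was -0.016, and the spike-in shift of 0.67 turns each of them towards the female pool.

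Markers of cells that make or answer interleukins were read on the same arrays. All 10 microglial markers were detected, with a summed level of 21.7 times the 75th percentile in males and 20.7 in females. Of 10 T cell and natural killer cell markers 5 were detected on both arrays, with a summed level of 0.187 and 0.203. Of these 5, 4 leaned towards females and 1 towards males, with a median of 0.26. Cd247 was at 0.57 and Gzmb at 0.50, each with a spot SD of 0.31, and Lck was at -0.054. Cd8a and Cd5 were detected by the female array alone, and Cd3e, Cd2 and Klrd1 by neither array. Of 7 neutrophil markers 6 were detected, all 6 higher in the male pool, with a summed level of 0.496 and 0.318 and Elane on neither array. Ltf was at -2.14, and S100a8, Mpo and Np4 lay in the row bands named above. Of 4 B cell markers 3 were detected (0.233 and 0.325, Ms4a1 on neither array), and of 6 mast cell markers 3 (0.0845 and 0.0784, Cma1 on neither). Among these 3, Mcpt9 was at 1.17 and Tpsab1 at 0.42 towards females and Mcpt8 at -0.58. Cpa3, which lay in the row bands named above, and Fcer1a were on the female array only, as were Il9, Cd8a and Cd5. The levels of Fcer1a were -9.14 and -9.18, the second below the lowest level that passed on the female array, -8.46. They thus take in signal that did not pass, and do not give the level of what was detected. The part of mast cells or T cells in the detection of Il9 was not tested.

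Markers of blood and of the tissue around the brain moved together within each list. All 4 red cell markers were higher in the male pool, with a median of -0.66 and summed levels of 40.5 and 30.3. The same held for all 7 meningeal markers, at a median of -0.42 (13.8 and 8.36), and all 6 choroid plexus markers, at a median of -0.31 (16.1 and 13.9). All 6 endothelial markers were higher in the female pool, at a median of 0.19 (4.44 and 5.20). Of the 5 astrocyte markers 4 were higher in the male pool, with a median of -0.15. With the spike-in shift of 0.67 the red cell, meningeal and choroid plexus medians turn towards the female pool, the red cell median to just above 0. On the scale used here the red cell, meningeal, choroid plexus and neutrophil values move in the direction of the 3 male-high receptors and of Il1b and Il10rb. Their part in those differences was not tested.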

How the data were processed

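Per the labels, RNA pools of the NTS of 5 male and 5 female rats were labelled (150 ng each, RNA integrity number above 7). The authors deposited single-colour intensity values of 1 array per pool, both on 1 slide. Per the file headers, Agilent Feature Extraction 10.7.3.1 subtracted background and detrended each array; the submitters' processing notes give 9.1. A deposited value table holds the same intensities times 1 factor per array, uncentred (column medians 28.0 and 27.3), and served as an alternative.

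Levels are log2 processed signals minus the 75th percentile of the array's rat spots, averaged over a probe's spots. Controls were dropped, as were 430 rat spots that carried an outlier flag on an array. A probe counted as present when most of its spots were well above background, and a gene's difference is the median of its probes present on both arrays. Genes carry the array's names; 79 of 84 member probes had an accession in the RefSeq table of GRCr8, all with the same symbol. Il36rn matched the naming pattern of receptors and was placed with the inhibitors after its name was read. A difference of 2-fold was the threshold, and no test was possible. Members, lists, rules and alternatives were chosen with earlier results of these data known, and cytokine families were assigned after the files were read. The rule named members 2-fold apart, the 8 largest differences in each direction, those with a bound and a set of well-known interleukins; the others are given to account for every member. From the other lists up to 3 genes with the largest difference were named. Alternatives were other scalings, loess of span 0.3, normexp with an offset of 50 (limma 3.58.1), 3 filters on dim signal, keeping flagged spots, the brightest probe only, 4 of 20 row bands left out, and thresholds of 1.5-fold and 3-fold. Steps ran in Python 3.11.15 and R 4.3.3 and were tested on simulated data. The number of arrays limits the precision.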

Additional observations from a re-analysis of the deposited data

How the results depend on the processing

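With 1 array per sex nothing could be left out in turn. No paired analysis was possible because each group holds 1 pooled sample. The count of interleukin genes 2-fold or more higher in the male pool was 3 (6% of members against 0.385% of all genes). It became 4 with a 1.5-fold threshold and 1 with a 3-fold one, settings without a share over all genes. With spike-in scaling it was 1 (2% against 0.0894%), with normexp 1 (2% against 0.117%) and without the 4 row bands 1 (2.33% against 0.271%). Among the 16 genes brighter than the median probe it was 0 (against 0.121%), and with no background filter 4 (5.48% against 1.31%). The count for the female pool, 0, became 3 with spike-in scaling (6% of members against 3.61% of all genes). It was 4 where detection on 1 array was enough (7.27% against 1.18%) and 7 with no background filter (9.59% against 2.21%). Spike-in scaling moved the median of ligands from 0.068 to 0.74 and that of receptors from -0.040 to 0.63, by its shift of 0.67 over every gene. The cause of the other changes was not tested. Of 335 values of 30 named genes under 12 alternatives, 296 moved by less than 1 spot SD, 39 moved further and 0 changed sign past 2-fold. Of the 39, 30 were under spike-in scaling, 7 under normexp and 2 with no background filter. Low signal also limits the values: 14 of 50 detected members lay over 64-fold below the 75th percentile.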
